A study of Mus musculus with 6 samples.

Results

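The YAP and TEAD pathway was followed through 9 genes in tdTomato+ cells sorted from mouse back skin: the coactivator genes Yap1 and Wwtr1 (the gene for TAZ), the DNA-binding partner Tead1, the regulators Lats2, Amotl1, Amotl2 and Ajuba, and the targets Ccn1 and Ccn2. The genes were chosen by name from the pathway, while the cell populations were selected on the levels of marker genes. They are 9 of the 32285 genes in each count table. Their unique molecular identifiers (UMIs, 1 per captured RNA molecule) were summed per library over 20941 cells, in all and by cell population named from marker genes. In the cells kept, the 9 genes had 111528 UMIs.

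The study used 6 single-cell libraries, 2 for each of 3 groups, to compare skin vessels at the resting (telogen) and growing (anagen) phases of the hair cycle and after loss of Alk1 (Acvrl1), a BMP receptor of endothelial cells (ECs). WT telogen mice were taken at postnatal day 20 and WT anagen mice at postnatal day 32. Both carried tdTomato, Cdh5-CreERT2 and Krt14-H2BGFP on a C57BL/6;CD1 background. Alk1 KO telogen mice were taken at postnatal day 25 and carried Alk1 flox/flox, tdTomato and Cdh5-CreERT2 on C57BL/6, without Krt14-H2BGFP. Every mouse, controls included, received 200 µg/g tamoxifen at postnatal day 17. The Cdh5 (VE-cadherin) promoter drove the Cre, so deletion and labelling were aimed at cells that had used that promoter. The paper describes the sorted immune cells and fibroblasts as contaminants negative for Cdh5, so loss of Alk1 cannot be assumed in them. The KO libraries differ from WT telogen in age, strain and reporter as well as in the Alk1 allele. They also belong to an earlier dataset of the same authors, and none of these can be told apart from the allele. The genotype field of the KO samples reads wild type, against their titles and descriptions, which were followed here.

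YAP and TAZ are transcriptional coactivators that cannot bind DNA themselves and act through TEAD factors such as TEAD1. The Hippo kinases, among them LATS2, phosphorylate YAP and TAZ and keep them out of the nucleus, while angiomotin-family scaffolds (Amotl1, Amotl2) bind them in the cytoplasm and at junctions and the LIM protein AJUBA restrains LATS. Nuclear YAP and TAZ raise CCN1 and CCN2, secreted matricellular proteins, and also raise negative regulators such as LATS2 and AMOTL2. In vessels the pathway is known for its response to flow, stretch and cell contact and for its part in sprouting. Messenger RNA levels do not show where the proteins are in the cell.

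The 250 bases before the annotated start were read for the 7 members with an entry among the RefSeq promoters of build GRCm38.p6, since the targets of the pathway are reached through TEAD sites. Ccn2 and Tead1 have no entry. The TEAD core, GGAATG on either strand (CATTCC on the other), was present in 5 of these 7 genes: Ccn1, Amotl2, Yap1, Wwtr1 and Ajuba. It was absent from this window in Amotl1 and Lats2. Counted by gene in the same way, 14.4% of 27025 genes held it, and by promoter 12.6% of 32851. The AP-1 letters TGANTCA and the CArG box of SRF, held by 6.75% and 1.47% of promoters, were in none of the members' windows, and a match is a description of letters, not of a bound site. The windows of both coactivators and of Ccn1 and Amotl2, which are also targets, are shown 5′ to 3′ on the gene's strand, with the TEAD core in capitals.
Ccn1: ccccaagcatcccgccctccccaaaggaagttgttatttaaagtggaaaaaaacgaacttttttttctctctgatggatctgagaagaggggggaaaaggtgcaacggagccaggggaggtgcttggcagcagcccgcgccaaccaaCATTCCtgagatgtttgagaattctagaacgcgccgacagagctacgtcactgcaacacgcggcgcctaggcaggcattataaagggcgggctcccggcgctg
Amotl2: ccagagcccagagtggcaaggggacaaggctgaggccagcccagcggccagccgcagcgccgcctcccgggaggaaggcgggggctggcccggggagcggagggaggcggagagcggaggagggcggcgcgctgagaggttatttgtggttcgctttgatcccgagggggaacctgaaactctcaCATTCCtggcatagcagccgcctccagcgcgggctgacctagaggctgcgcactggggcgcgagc
Yap1: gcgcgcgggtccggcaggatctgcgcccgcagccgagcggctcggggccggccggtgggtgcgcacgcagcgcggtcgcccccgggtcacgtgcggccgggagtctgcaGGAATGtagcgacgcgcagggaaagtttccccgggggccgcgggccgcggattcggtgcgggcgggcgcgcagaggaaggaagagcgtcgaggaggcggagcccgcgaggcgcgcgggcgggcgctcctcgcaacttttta
Wwtr1: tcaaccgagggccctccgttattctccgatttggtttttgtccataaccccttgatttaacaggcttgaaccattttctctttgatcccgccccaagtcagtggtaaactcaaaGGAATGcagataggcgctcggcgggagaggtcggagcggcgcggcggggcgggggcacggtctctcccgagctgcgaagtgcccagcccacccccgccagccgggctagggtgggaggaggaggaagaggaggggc

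In Ccn1 (chr3:145649986-145650235, minus strand) the core began 103 bases before the start, and in Amotl2 (chr9:102717554-102717803, plus strand) 65 bases before it. For Yap1 (chr9:8004597-8004846, minus strand) the distance was 141 bases, and for the first listed start of Wwtr1 (chr3:57575911-57576160, minus strand) 136 bases. Ajuba held the core at 2 places, 186 and 164 bases before its start. Ccn2, without a window here, lies at chr10:24595442-24598683 on the plus strand of GRCm38. Amotl1, Lats2 and Tead1 overlap another annotated gene on the same strand, so reads there may be shared. Ccn2, Yap1, Wwtr1, Amotl1, Lats2 and Tead1 also overlap an antisense gene, and whether the counting used strand is not given in the sources used here.

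The tables held between 10615358 and 43317677 UMIs per library, and 1713 to 5106 cells per library were kept, with a median of 4371 to 6935 UMIs. The KO libraries had the lowest totals. Any pair of libraries shared 1 to 8 cell barcodes, at most 0.234% of the smaller library. Acvrl1 reads do not check the deletion, since only the 3′ end of the RNA was read and the place of the deleted part was not given in the sources used here: over all ECs Acvrl1 stood at 155 and 130 CPM (UMIs of the gene scaled to 1000000 UMIs of the sum) in WT telogen, 136 and 157 in WT anagen and 119 and 96.7 in Alk1 KO. Xist was high in WT telogen S1 and in both KO libraries (856 to 938 CPM) and at or below 0.0959 CPM in the other 3, which carried Y-linked RNA, so sex moved in part with both comparisons. Values without the WT telogen library that differs in this from the libraries compared with it stand beside the main results in Cdh5+/Krt19+, lymphatic and fibroblast-like cells.

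In WT skin the 9 genes were not evenly spread over the cell populations. Populations were 7 of ECs (Artery, Vein, the capillaries Cap-Kdr and Cap-Rgcc, collecting lymphatics Lymph-Col, capillary lymphatics Lymph-Cap and proliferating Proli), the Cdh5+/Krt19+ cells, a VE-cadherin-expressing population outside the known EC types, and pericyte-like, Schwann-like, fibroblast-like and immune-like cells. Levels are means ± SD over the 4 WT libraries in CPM of the population's UMIs, and since the populations are clusters of these same cells they were not tested against each other. In bulk sums of this kind, fewer cells with the RNA and less RNA per cell cannot be told apart.

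Both coactivators were highest in Lymph-Col. Wwtr1 reached 413 ± 92.7 CPM in Lymph-Col, 337 ± 115 in Lymph-Cap and 325 ± 45.6 in Cap-Rgcc, and its lowest level outside immune-like cells was 125 ± 11.9 in fibroblast-like cells. Yap1 ranged from 80.6 ± 18.9 CPM in Lymph-Col and 75.3 ± 24.7 in Cap-Rgcc down to 38.0 ± 4.29 in Cdh5+/Krt19+ cells and 24.8 ± 4.63 in Proli. Neighbours in either order overlapped over libraries except at the lower end. There, immune-like cells stood clear below the next population at 10.2 ± 5.05 CPM of Wwtr1 and 2.20 ± 0.936 of Yap1. Yap1 in Schwann-like cells nevertheless went down to 0 CPM in its lowest library. All ECs together gave 77.1% of the WT Wwtr1 UMIs and 71.3% of those of Yap1, from 57.4% of the cells.

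Tead1, the DNA-binding partner, had another order. Schwann-like cells led with 209 ± 51.5 CPM and did not overlap with the next, Cdh5+/Krt19+ cells at 113 ± 13.6 CPM. Schwann-like cells were only 0.625% of the WT cells kept, with 243 UMIs of Tead1. Lymph-Cap followed at 84.2 ± 22.8 CPM, and Cap-Kdr, at 34.6 ± 11.2, was lowest of the ECs.

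Among the regulators, the angiomotin genes differed in where they were high. Amotl1 was at 139 ± 35.2 CPM in Lymph-Cap, 112 ± 26.8 in Artery, 102 ± 50.2 in Schwann-like and 84.6 ± 14.2 in pericyte-like cells, and at 61.6 ± 11.7 in Cdh5+/Krt19+ cells. Amotl2 was highest in Cdh5+/Krt19+ cells, at 78.4 ± 16.8 CPM, then Cap-Kdr at 49.5 ± 13.7 and Lymph-Cap at 44.0 ± 7.64, and was low in Lymph-Col at 15.0 ± 1.88. Ajuba was close to absent from blood ECs, between 0.368 ± 0.613 CPM in Cap-Rgcc and 1.52 ± 0.182 in Artery, and present in Schwann-like (21.3 ± 22.6), pericyte-like (19.9 ± 5.50), Lymph-Cap (11.1 ± 7.29) and Cdh5+/Krt19+ cells (8.95 to 12.9 over the 4 libraries). Its Schwann-like value rests on 13 UMIs over the 4 libraries. Lats2 was the one member at an EC-like level in immune-like cells, 52.8 ± 1.50 CPM, where the other 8 genes were at 23.5 CPM or less. Its range over all 12 populations was narrow, from 27.8 ± 7.95 CPM in fibroblast-like cells to 76.9 ± 7.78 in Cap-Kdr.

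Both CCN targets were highest in Cdh5+/Krt19+ cells. Ccn1 stood at 830 ± 216 CPM there, at 750 ± 245 in Lymph-Cap and at 572 ± 125 in fibroblast-like cells, which overlapped each other over libraries. Cdh5+/Krt19+ cells were 14.6% of the WT cells kept and gave 32.4% of the Ccn1 UMIs and 42.8% of the Ccn2 UMIs. Ccn2 was at 104 ± 17.5 CPM in these cells, 78.2 ± 64.1 in Vein and 69.7 ± 9.39 in Lymph-Cap. The wide Vein spread came from 1 library, WT telogen S2 at 174 CPM, against 43.4 to 50.2 in the other 3. Cap-Rgcc and Lymph-Col had little Ccn2 (4.63 ± 2.68 and 4.20 ± 0.818 CPM), so the collecting and capillary lymphatics, close in Wwtr1, stood far apart in this target.

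**Figure D1:**
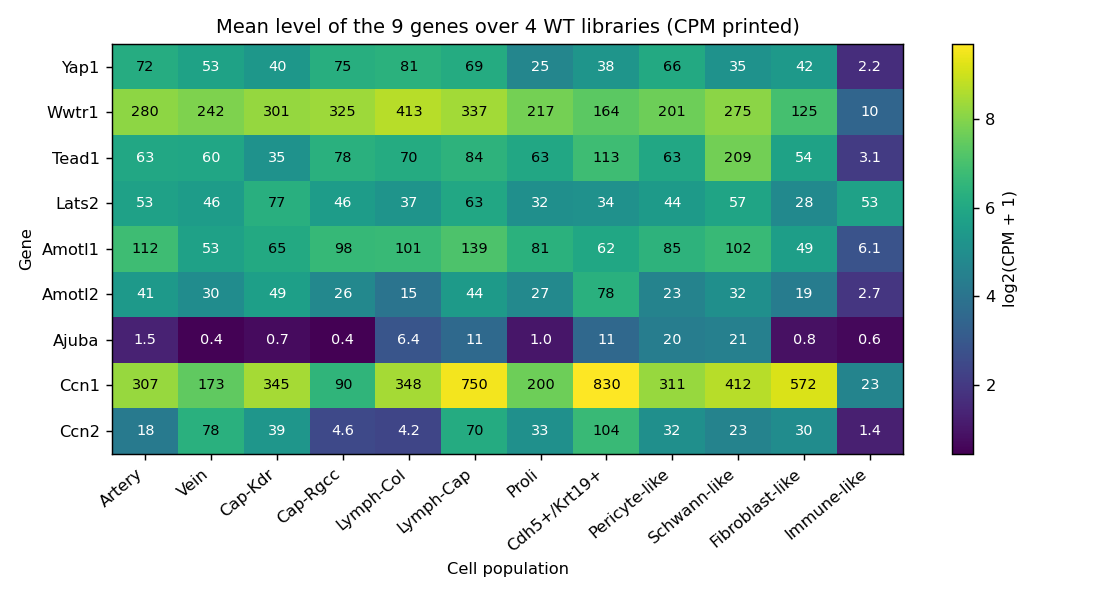
Mean level of each of the 9 genes (rows) in 12 cell populations (columns) over the 4 WT libraries. Each cell prints the mean in CPM and its colour is log2(CPM + 1): Wwtr1 and Yap1 are brightest in Lymph-Col, Ccn1, Ccn2 and Amotl2 in Cdh5+/Krt19+ cells, and all but Lats2 are dark in immune-like cells.

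Across the 66 sums of a library and a population with at least 20 cells, Yap1 and Wwtr1 were each other's most similar gene among 8734 (Pearson r of log2(CPM + 1) = 0.910), and Amotl1 came next for Wwtr1 (r = 0.905). For Amotl1 itself the closest genes were Nckap1 (0.919), Wwtr1 and Sptbn1 (0.880). For Yap1, Rhoj (0.902) and Adamts1 (0.892) followed Wwtr1, and for Wwtr1 the third was Dab2ip (0.897). Tead1 was most like Lamc1 (0.878), Hdgfl3 (0.875) and Fermt2 (0.860). Amotl2 was most like Tjp1 (0.799), Plscr4 (0.798) and Limk2 (0.795), and Ajuba like Pacsin3 (0.828), Plce1 (0.822) and Gucy1b1 (0.812). For the targets these were Nfia (0.845), Id3 (0.844) and Ecm2 (0.844) with Ccn1, and Acbd4 (0.796), Tmem159 (0.785) and Prss23 (0.781) with Ccn2. Lats2 had no close neighbour, with Dpp8 (0.665), Baz2b (0.662) and Vps13d (0.662) at the head of its list and r between -0.06 and 0.25 with the other 8 members. Sums of 1 library share its depth and cell handling, so these values are descriptions without a test. The sums include immune-like cells, lowest of all populations in WT for Wwtr1 (10.2 CPM), Amotl1 (6.06), Tead1 (3.12) and Yap1 (2.20), but not for Lats2. The part of that contrast in the r values was not tested.

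The first comparison asked how the pathway's RNAs differ without Alk1, in each population of the 2 Alk1 KO and 2 WT telogen libraries. Proli was left out, with 3 and 1 cells in the KO libraries. A gene was called when edgeR's quasi-likelihood test gave a Benjamini-Hochberg adjusted p under 0.05 over all genes of that population and the fold was over 1.3. With 2 libraries a group, p-values measure the spread between these libraries alone, and the WT telogen libraries are the controls of both comparisons below. Of 99 pairs of a member and a population, 88 could be tested and 21 were called, 16 higher and 5 lower in Alk1 KO. That is 23.9% of the pairs tested, beside 18.7% of all 92831 pairs of a gene and a population (8.5% higher and 10.2% lower). Amotl2, Ccn1 and Ccn2 were called higher in 4, 4 and 3 populations and lower in none, Wwtr1 lower in 2 and higher in none, and Yap1, Amotl1 and Tead1 in both directions. Ajuba was tested in 4 populations and called in none.

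**Figure D2:**
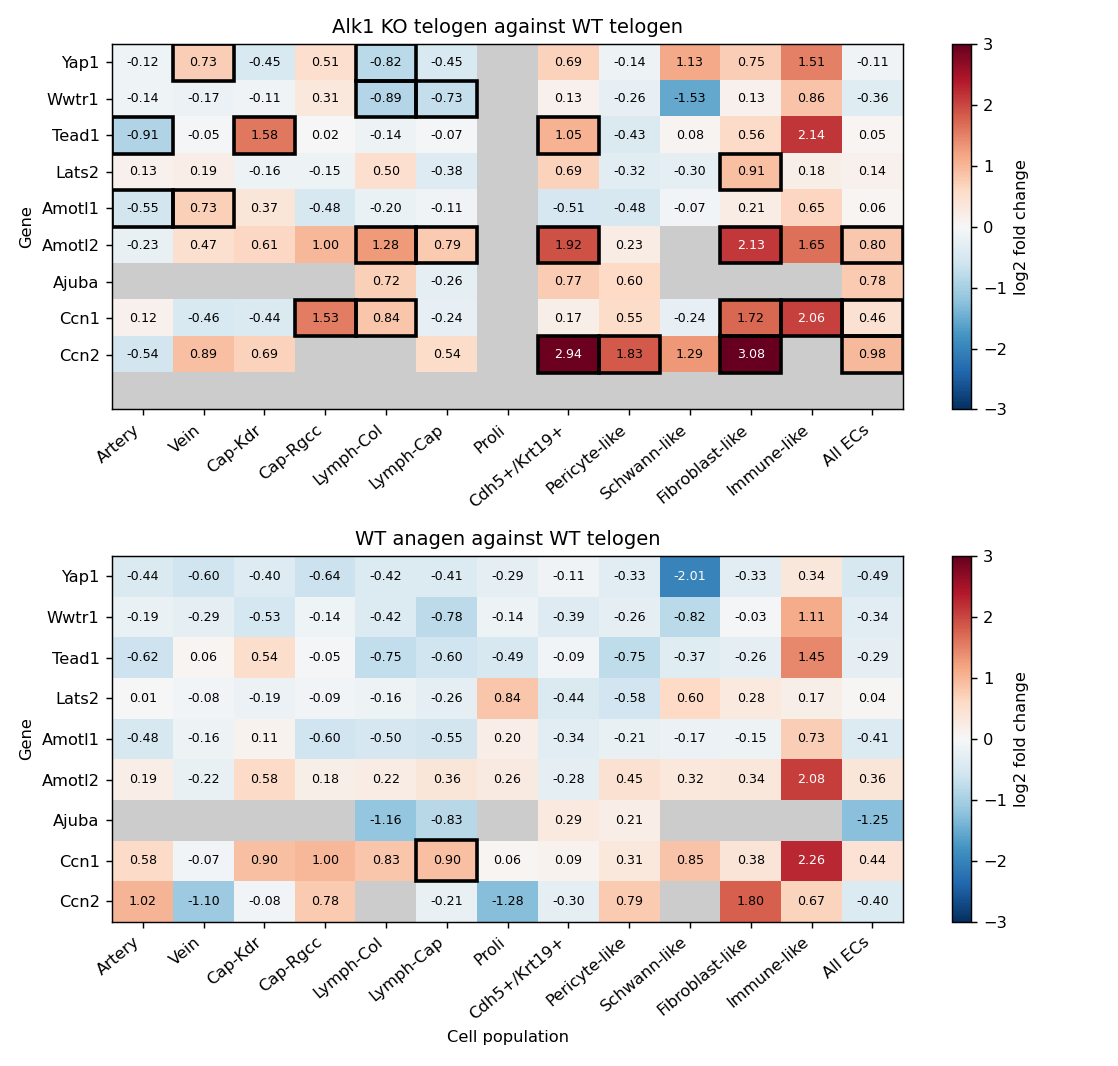
Fitted log2 fold change of each of the 9 genes (rows) in each population and in all ECs (columns), Alk1 KO telogen against WT telogen above and WT anagen against WT telogen below, with red higher, blue lower and a black frame where the gene was called. Grey squares were not tested or had a group without a UMI. Framed squares of the upper panel are led by Ccn2 at 3.08 in fibroblast-like and 2.94 in Cdh5+/Krt19+ cells, and the lower panel holds 1, Ccn1 in Lymph-Cap.

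In Cdh5+/Krt19+ cells Ccn2, Amotl2 and Tead1 rose in Alk1 KO. Ccn2 was at 128 and 108 CPM in the WT telogen libraries, 92.8 and 89.2 in WT anagen, and 899 and 1047 in Alk1 KO. The KO libraries lay far above all 4 WT libraries. The fitted rise was 7.69-fold (log2 fold change 2.94 ± 0.21 SE, edgeR quasi-likelihood adjusted p = 4.63e-06). Ccn2 is also on the KO gene list the study drew from these same libraries, so its direction here is not independent of that choice.

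Amotl2, which binds YAP and TAZ and is itself a target of theirs, rose 3.78-fold in the same cells. Its levels were 98.2 and 77.4 CPM in WT telogen, 80.9 and 57.2 in WT anagen and 382 and 314 in Alk1 KO, again without overlap (log2 fold change 1.92 ± 0.21 SE, edgeR adjusted p = 9.01e-05). Tead1 rose 2.07-fold, from 114 and 126 CPM to 221 and 325 (1.05 ± 0.20 SE, edgeR adjusted p = 0.00313), with WT anagen at 93.8 and 118. These were 3 of 9 members tested, all higher, beside 21.1% of all genes called in this population (9.86% higher).

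The other 6 members were not called in Cdh5+/Krt19+ cells. Ccn1, the target with the highest level there, was at 866 and 783 CPM in WT telogen and 1198 and 744 in Alk1 KO, an overlap (log2 fold change 0.17 ± 0.25 SE, edgeR adjusted p = 0.693). Wwtr1 was at 196 and 184 CPM against 237 and 198 (0.13 ± 0.20 SE). Lats2 at 42.1 and 38.0 CPM against 59.9 and 82.6, and Yap1 at 43.7 and 37.0 against 53.6 and 93.7, lay higher in both KO libraries without passing (0.69 ± 0.28 and 0.69 ± 0.30 SE, edgeR adjusted p = 0.102 and 0.126). Amotl1 had a log2 fold change of -0.51 ± 0.29 SE, and Ajuba, with few UMIs, 0.77 ± 0.59 SE.

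**Figure D3:**
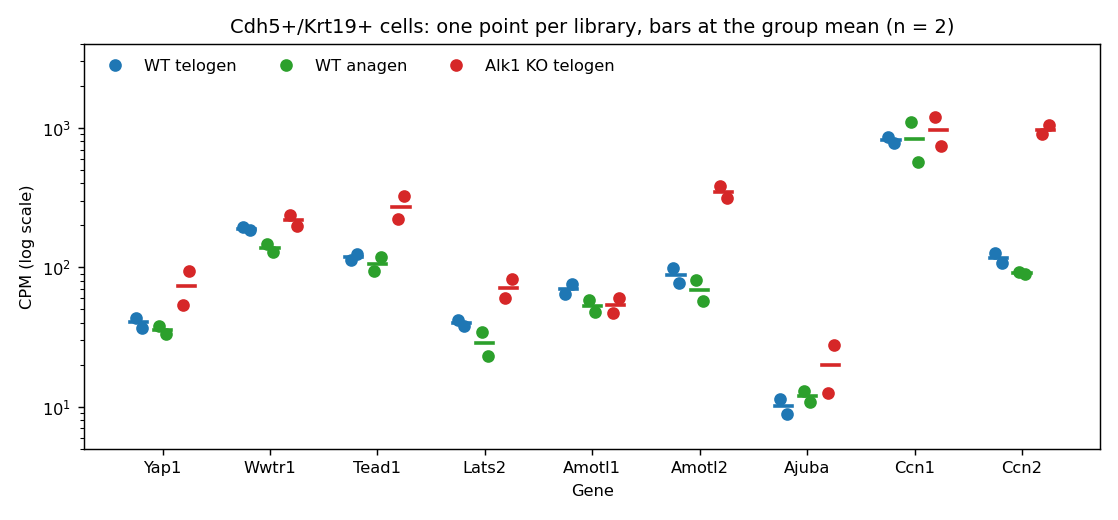
Level of the 9 genes in Cdh5+/Krt19+ cells in CPM on a log axis, 1 point per library and a bar at the mean of each group of 2. The Alk1 KO points of Ccn2 (899 and 1047 CPM) and Amotl2 (382 and 314 CPM) sit far above both WT groups, those of Tead1 sit above them with less distance, and those of Ccn1 overlap with them.

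The Ccn2, Amotl2 and Tead1 differences were larger in Cdh5+/Krt19+ cells than in all ECs pooled, by a test of the difference itself. The interaction of population and genotype was 1.89 ± 0.29 SE on the log2 scale for Ccn2 (edgeR adjusted p = 0.000568), 1.08 ± 0.22 for Amotl2 (edgeR adjusted p = 0.00518) and 0.96 ± 0.21 for Tead1 (edgeR adjusted p = 0.0108), 3 of 9 members beside 6.34% of all genes (3.12% higher). Without WT telogen S1 or without WT telogen S2, the Amotl2 term (0.96 and 0.97) and the Tead1 term (0.66 and 1.08) were no longer called, while that of Ccn2 was (2.27 and 1.29). Without Alk1 KO S1 the Amotl2 term and without Alk1 KO S2 the Tead1 term was lost as well. For Tead1 the EC pool joined opposite differences, 2.98-fold higher in Cap-Kdr and 1.88-fold lower in Artery, beside 2.07-fold higher in Cdh5+/Krt19+ cells. The make-up of the pool shifted too, with Lymph-Cap at 4.39% of all WT cells kept and 25.4% of KO cells.

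Both subsets of the Cdh5+/Krt19+ cells carried the same calls. At a finer resolution these cells split into a cluster led by Slc6a13 and Spink1 and another led by Hcn4, Cldn22 and Sfrp5, fitted apart after the main result was seen. In the Slc6a13 cluster Ccn2 was at 177 and 158 CPM in WT telogen and 1235 and 1599 in Alk1 KO (log2 fold change 2.95 ± 0.22 SE, edgeR adjusted p = 1.62e-05). In the Hcn4 cluster it was at 66.9 and 58.1 CPM against 545 and 315 (2.73 ± 0.28 SE, edgeR adjusted p = 0.000145). Amotl2 (1.99 and 1.85) and Tead1 (0.84 and 1.18) were called in both clusters, where 15% and 12.4% of all genes were.

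After each cell was thinned to 1500 UMIs, Ccn2 was found in 147 of 1374 WT telogen Cdh5+/Krt19+ cells (10.7%, exact binomial 95% interval 9.11 to 12.5) and in 42 of 118 KO cells (35.6%, 27.0 to 44.9), intervals that cover counting error only. Thinning left out 36 and 20 shallower cells. Unthinned shares were 22.8% and 42.0%, at median depths of 5868 and 3270 UMIs. In immune-like cells, which should lack the gene, the thinned shares were 0.146% in WT telogen and 0.546% in KO.

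Cell numbers, markers and sex moved with this comparison. The KO sums rest on 82 and 56 cells, against 551 and 859 in WT telogen. The summed level of the 11 markers of the population was 7601 and 8043 CPM in WT telogen and 5254 and 5294 in KO, with 8 of 11 lower in both KO libraries and Lypd2 at 0 in 1 of them. Fibroblast markers (8 genes) summed to 3485 and 3596 CPM against 814 and 611, and pericyte markers (10 genes) to 77.1 and 96.1 against 173 and 270, where 2 of 10 were higher and 6 lower in both KO libraries, with Rgs5, Acta2, Des and Myh11 at 0 in both KO libraries. The part of these shifts in the result was not tested. Without WT telogen S2, which leaves libraries with Xist only, Ccn2 (2.80), Amotl2 (1.73) and Tead1 (1.12) were still called, and without WT telogen S1 Tead1 was not (0.95, edgeR adjusted p = 0.0741).

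In lymphatic ECs the coactivators fell and Amotl2 rose. Lymph-Col and Lymph-Cap were fitted as 1 sum, a choice made after the data were seen. Wwtr1 was at 462 and 490 CPM in WT telogen and 248 and 304 in Alk1 KO, without overlap (log2 fold change -0.85 ± 0.13 SE, edgeR adjusted p = 0.00167). Yap1 was at 98.5 and 85.0 CPM against 63.3 and 57.2, also apart (-0.67 ± 0.14 SE, edgeR adjusted p = 0.00824), and without WT telogen S1 the value was -0.55 and not called. Amotl2 stood at 21.5 and 22.6 CPM against 56.8 and 61.9, the reverse direction (1.37 ± 0.16 SE, edgeR adjusted p = 0.000357). Ccn2 was called too (1.53 ± 0.43 SE, edgeR adjusted p = 0.0290), but on 1 library: KO S1 was at 113 CPM and KO S2 at 38.6, against 25.4 and 24.6 in WT telogen, and without KO S1 the value was 0.55 and not called. The Ccn2 call was also lost with DESeq2. The 4 calls among 9 members stand beside 24.8% of all genes. Without WT telogen S2, which leaves libraries with Xist only, Wwtr1 (-0.82), Yap1 (-0.78), Amotl2 (1.39) and Ccn2 (1.50) were still called. WT anagen differed from WT telogen in the same directions without a call: Wwtr1 was 1.45-fold and Yap1 1.35-fold lower, and Amotl2 1.29-fold higher. In Alk1 KO these folds were 1.80, 1.59 and 2.58.

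Lymph-Col and Lymph-Cap were also fitted apart. In Lymph-Col, Wwtr1 went from 471 and 513 CPM to 281 and 278 (-0.89 ± 0.14 SE, edgeR adjusted p = 0.00135), Yap1 fell (-0.82 ± 0.18 SE, edgeR adjusted p = 0.00771), and Amotl2 (1.28 ± 0.27 SE) and Ccn1 (0.84 ± 0.18 SE) rose. The Ccn1 call was lost without WT telogen S2 and with no correction between libraries, and the Yap1 and Amotl2 calls with DESeq2. Those 4 of 8 members tested compare with 17.8% of all genes. In Lymph-Cap, Wwtr1 fell (-0.73 ± 0.17 SE) and Amotl2 rose (0.79 ± 0.21 SE), 2 of 9 beside 15.6%. Both calls were lost without either WT telogen library, that of Wwtr1 also without Alk1 KO S1, and that of Amotl2 also with DESeq2 and under 5% mitochondrial UMIs. Yap1 in Lymph-Cap was at 91.8 and 68.9 CPM against 63.3 and 60.4 and did not pass. The share of Lymph-Cap among lymphatic cells differed as well, with 184 and 167 Lymph-Cap cells beside 361 and 410 Lymph-Col in WT telogen, and 413 and 518 beside 284 and 330 in Alk1 KO, so the pooled Ccn2 and Amotl2 values also carry that shift. The 17 immediate-early and heat-shock genes, which respond to tissue dissociation, summed to 29026 and 25239 CPM in WT telogen and 34883 and 34086 in Alk1 KO in Lymph-Col (4 called higher, 2 lower), and to 14806 and 13687 against 19374 and 19515 in Lymph-Cap (6 higher, 5 lower). Their part in these values was not tested.

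In blood ECs (Artery, Vein, Cap-Kdr and Cap-Rgcc as 1 sum) the coactivators showed no such fall. Their Wwtr1 was at 319 and 316 CPM in WT telogen and 293 and 341 in Alk1 KO, and Yap1 at 78.6 and 69.4 against 94.5 and 96.0, higher in both KO libraries. This sum joined opposite directions. Yap1 was 1.66-fold higher in Vein and 1.43-fold in Cap-Rgcc, but 1.37-fold lower in Cap-Kdr and 1.09-fold in Artery. Amotl2 was 1.99-fold higher in Cap-Rgcc, 1.53-fold in Cap-Kdr and 1.39-fold in Vein without a call, and 1.17-fold lower in Artery. In Lymph-Cap, Yap1 was 1.36-fold lower and Amotl2 1.73-fold higher. No member was called in blood ECs as a whole by edgeR, where 31.4% of all genes were. An unadjusted p under 0.05 was found for 2 members, beside 4719 of all 11086 genes. The genotype difference in lymphatic against blood ECs was itself called for Yap1 (-1.03 ± 0.17 SE, edgeR adjusted p = 0.000246), Wwtr1 (-0.84 ± 0.14 SE, edgeR adjusted p = 0.000302) and Amotl2 (0.98 ± 0.22 SE, edgeR adjusted p = 0.0039), beside 19.7% of all genes. Leaving out any 1 of the 4 libraries kept the Yap1 and Wwtr1 terms, and leaving out WT telogen S1 lost that of Amotl2 (0.81, edgeR adjusted p = 0.0687).

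**Figure D4:**
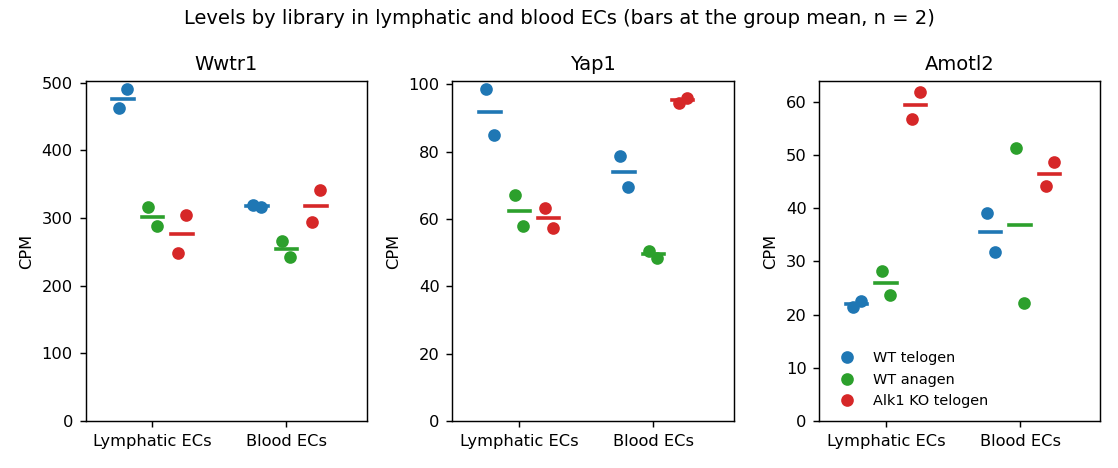
Wwtr1, Yap1 and Amotl2 in CPM in lymphatic and blood ECs, 1 point per library and a bar at the mean of each group of 2. In lymphatic ECs the Alk1 KO points of Wwtr1 and Yap1 lie below and those of Amotl2 above WT telogen, while in blood ECs Wwtr1 overlaps between them and Yap1 lies higher in KO. WT anagen points of Wwtr1 and Yap1 are low in both EC kinds.

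The blood EC populations were also fitted apart. Amotl1 was called lower in Artery and higher in Vein, and Tead1 lower in Artery and higher in Cap-Kdr. In Artery, Tead1 fell from 86.9 and 69.3 CPM to 38.4 and 44.5 (log2 fold change -0.91 ± 0.21 SE, edgeR adjusted p = 0.0112) and Amotl1 from 127 and 143 to 91.4 and 91.5 (-0.55 ± 0.16 SE, edgeR adjusted p = 0.0303), 2 of 8 beside 18.4% of all genes. The Amotl1 call was lost when any 1 library was left out, and that of Tead1 without WT telogen S1 (-0.74). Both were lost with DESeq2, and that of Amotl1 also under 5% mitochondrial UMIs and with no correction between libraries. In Vein, Amotl1 rose from 50.5 and 65.2 CPM to 96.0 and 96.7 (0.73 ± 0.21 SE, edgeR adjusted p = 0.0243) and Yap1 from 63.0 and 69.7 to 104 and 119 (0.73 ± 0.19 SE, edgeR adjusted p = 0.0168), beside 21% of all genes. Both Vein calls were lost without WT telogen S1 and with DESeq2, and that of Yap1 also without WT telogen S2. That of Amotl1 was also lost under 5% mitochondrial UMIs and with no correction between libraries.

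In the capillaries, Tead1 rose in Cap-Kdr from 36.1 and 20.2 CPM to 102 and 86.9 (1.58 ± 0.32 SE, edgeR adjusted p = 0.000769), 1 of 8 members beside 35% of all genes. Ccn1 rose in Cap-Rgcc from 46.9 and 79.2 CPM to 227 and 120 (1.53 ± 0.33 SE, edgeR adjusted p = 0.0057), 1 of 7 beside 19.1%. The Cap-Rgcc call was lost at the finer cluster resolution and with all 6 libraries in 1 fit, and that of Cap-Kdr when cells were clustered without correction between libraries. Without that correction most KO ECs fell in clusters apart from WT, among them a cluster that met no name, with 488 and 522 KO cells and 1 or 2 cells of each WT library, while the clusters named Cap-Kdr held few KO cells (17 and 3 in one, 7 and 2 in the other). Of the 17 immediate-early and heat-shock genes, 13 were called lower in the KO Cap-Kdr and 10 higher in the KO Cap-Rgcc, and their part in the Ccn1 and Tead1 values was not tested.

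Over all ECs together, Amotl2 rose from 31.3 and 28.5 CPM to 51.7 and 56.4 (0.80 ± 0.12 SE, edgeR adjusted p = 0.00209). Ccn1 (0.46 ± 0.13 SE, edgeR adjusted p = 0.0287) and Ccn2 (0.98 ± 0.29 SE, edgeR adjusted p = 0.0332) were also called, 3 of 9 members beside 32.4% of all genes (14.9% higher). Wwtr1 passed on p (-0.36 ± 0.12 SE, edgeR adjusted p = 0.0453) and missed the fold of 1.3. The Ccn2 call was lost with DESeq2, without WT telogen S1 and without Alk1 KO S1, and that of Ccn1 when each EC population was given equal cell numbers (0.35, edgeR adjusted p = 0.0748) or WT telogen S2 was left out (0.31). With all 6 libraries in 1 fit, none of the Amotl2, Ccn1 and Ccn2 calls was kept.

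Outside ECs, Ccn2 rose in pericyte-like cells from 20.7 and 27.0 CPM to 87.0 and 97.4 (1.83 ± 0.33 SE, edgeR adjusted p = 0.0249), on 28 and 21 UMIs in the KO libraries, 1 of 9 members beside 5.87% of all genes. Without WT telogen S1 and with DESeq2 it was not called. EC markers in these cells summed to 3591 and 2863 CPM in WT telogen and 652 and 2195 in KO. Fibroblast-like cells had 4 calls of 8 members, all higher: Ccn2 (3.08 ± 0.44 SE), Amotl2 (2.13 ± 0.27 SE), Ccn1 (1.72 ± 0.31 SE) and Lats2 (0.91 ± 0.29 SE), beside 38.8% of all genes (17.3% higher). The Lats2 call was lost without either WT telogen library and without KO S2, while without WT telogen S2 Ccn2 (3.10), Amotl2 (1.99) and Ccn1 (1.44) were still called. Lats2 was also not called with DESeq2, with no filter on low counts, with all 6 libraries in 1 fit, with the replicate block and at the finer cluster resolution. The identity of these KO cells is in doubt: their 8 fibroblast markers summed to 4927 and 4429 CPM against 57518 and 45977 in WT telogen, 7 of 8 were lower in both KO libraries, and without correction between libraries 0 KO cells fell in this population. Immediate-early genes were higher there as well, with 13 of 17 called. Since the paper describes sorted fibroblasts and immune cells as contaminants negative for Cdh5, the calls in both populations may come from cells that kept Alk1. In immune-like cells Ccn1 was called (2.06 ± 0.28 SE, edgeR adjusted p = 0.0372), beside 5.76%, on 19 and 68 UMIs in KO. This call was lost without either WT telogen library and with all 6 libraries in 1 fit. In Schwann-like cells, with 8 and 12 KO cells, 0 of 7 members were called by edgeR, beside 8.56% of all genes. An unadjusted p under 0.05 was found for 1 member, beside 1156 of all 4171 genes.

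The second comparison asked whether the genes differ between anagen and telogen in WT skin. Of 99 pairs of a member and a population tested by edgeR, 1 was called (1.01%), beside 0.41% of all 105238 pairs (0.327% higher and 0.0827% lower). Before adjustment, 29 pairs were under 0.05. Over all genes, those under 0.05 before adjustment ran from 522 of 8833 in pericyte-like cells to 1876 of 9525 in Lymph-Col, the lowest and highest shares. The call was Ccn1 in Lymph-Cap, at 588 and 494 CPM in telogen and 988 and 929 in anagen, without overlap (log2 fold change 0.90 ± 0.15 SE, edgeR adjusted p = 0.0348). Without WT telogen S1, which leaves libraries with Y-linked RNA only, it was still called, and without WT telogen S2 it was not. In the pooled lymphatic ECs Ccn1 was called as well (0.93 ± 0.17 SE, edgeR adjusted p = 0.0328), beside 1.44% of all genes, and lost without either telogen library. Ccn1 had a log2 fold change above 0 in 11 of 12 populations, with a median of 0.71. The populations come from the same 4 libraries and are not separate observations. Over all genes, 46.8% (Schwann-like) to 51.0% (Cap-Rgcc) lay above 0.

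The coactivators leaned the other way at anagen without a call. Yap1 and Wwtr1 each had a log2 fold change above 0 in 1 of 12 populations, with medians of -0.40 and -0.28, again over populations of the same 4 libraries. Over all ECs Yap1 was at 82.9 and 72.9 CPM in telogen and 50.5 and 47.2 in anagen, without overlap, and did not pass (-0.49 ± 0.12 SE, edgeR adjusted p = 0.0683). Wwtr1 there was at 366 and 379 CPM against 269 and 249, also apart (-0.34 ± 0.10 SE, edgeR adjusted p = 0.108). Amotl1 (-0.41 ± 0.10 SE, edgeR adjusted p = 0.0716), Ajuba (-1.25 ± 0.45 SE, edgeR adjusted p = 0.138) and Tead1 (-0.29 ± 0.11 SE, edgeR adjusted p = 0.146) did not pass either. Of the 9 members, 0 were called over all ECs by edgeR, where 5.22% of all genes were. An unadjusted p under 0.05 was found for 5 members, beside 3767 of all 13675 genes. With blood ECs as 1 sum, Yap1 was 1.36-fold, Wwtr1 1.13-fold and Tead1 1.03-fold lower at anagen, and 0 of 12439 genes were called. In lymphatic ECs these folds were 1.35, 1.45 and 1.61. The paper reports a larger share of blood and a smaller share of lymphatic ECs at anagen. The part of such a shift in the values over all ECs was not tested.

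In Cdh5+/Krt19+ cells the stages were close. The calls were 0 of 9 by edgeR, beside 0.957% of all genes. An unadjusted p under 0.05 was found for 1 member (Wwtr1, -0.39 ± 0.13 SE), beside 1632 of all 11184 genes. Ccn2 there had a log2 fold change of -0.30 ± 0.14 SE and Amotl2 of -0.28 ± 0.20 SE, beside the KO values of 2.94 and 1.92 against the same telogen libraries. No member's stage difference was called as different between Cdh5+/Krt19+ cells and ECs or between lymphatic and blood ECs by edgeR, beside 2.18% and 0.101% of all genes called. An unadjusted p under 0.05 was found for 5 and 3 of 9 members, beside 2290 of 13264 and 988 of 11887 genes.

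Other genes of the pathway were read from lists by role. The Hippo kinase core (Stk3, Stk4, Sav1, Lats1, Mob1a, Mob1b) had 0 of 6 genes called by edgeR in Alk1 KO, over all ECs and in Cdh5+/Krt19+ cells, with median log2 fold changes of -0.02 and 0.07 beside 0.01 and -0.06 over all genes. Of 12 upstream regulators and scaffolds tested over all ECs, 3 rose (Frmd6 0.59, Taok1 0.39, Taok2 0.48) and 3 fell (Map4k4 -0.39, Limd1 -0.49, Dchs1 -0.83), beside 32.4% of all genes called. Of 11 tested in Cdh5+/Krt19+ cells, Wwc2 rose (1.02) and Frmd6 fell (-0.95), beside 21.1%. Among TEAD factors and Vgll cofactors, Vgll4, which competes with YAP for TEAD, fell over all ECs (-0.98 ± 0.15 SE, edgeR adjusted p = 0.0021), 1 of 4 tested, and Vgll3 rose in Cdh5+/Krt19+ cells (1.06).

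The remaining genes of a published signature of YAP and TAZ targets were called in both directions over all ECs, 6 of 16 beside 32.4% of all genes. Of these 1 rose, Igfbp3 (2.22 ± 0.12 SE), an IGF-binding protein, and 5 fell: the coagulation starter F3 (-3.28 ± 0.59 SE), Arhgef17 (-2.66), Fjx1 (-1.94), Myof (-1.55) and Tgfb2 (-1.06). Their median was -0.22 beside 0.01 for all genes. In Cdh5+/Krt19+ cells 3 of 15 rose, Igfbp3 (2.92 ± 0.73 SE), Crim1 (1.66 ± 0.22 SE) and Dock5 (1.22 ± 0.25 SE), 0 fell, beside 21.1% of all genes called, and the median was -0.27 beside -0.06. In the rest of the CCN family, Ccn3 rose over all ECs (2.25 ± 0.37 SE) and Ccn4 fell in Cdh5+/Krt19+ cells (-2.79 ± 0.72 SE).

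Genes of SRF and the cytoskeleton, which share upstream signals with YAP, fell over all ECs in 5 of 7 cases: the light chain Myl9 (-3.41), the calponin Cnn2 (-1.89), Tpm1 (-0.73), Vcl (-0.58) and Flna (-0.58), beside 32.4% of all genes called in either direction. The 10 pericyte markers fell in the same sums, from 70.6 and 69.0 CPM to 15.3 and 15.1, and Myl9, Tpm1 and Cnn2 are also genes of contractile mural cells. The 8 fibroblast markers fell too, from 51.6 and 107 CPM to 3.67 and 1.98. The part of such RNA in these values and in those of the signature was not tested. In Cdh5+/Krt19+ cells Actn1 (1.96 ± 0.18 SE) and Tpm1 (1.01 ± 0.19 SE) rose, 2 of 8 beside 21.1%. Of 17 immediate-early and heat-shock genes, Fos (0.41), Egr1 (0.48) and Myc (0.58) rose and Nr4a1 (-0.78) and Hspa1a (-1.01) fell over all ECs, while in Cdh5+/Krt19+ cells Egr1 (0.79), Nr4a1 (1.09), Hspa1b (1.88) and Myc (3.09) rose and Atf3 (-0.90) fell. Between stages, Ptpn14 (-1.06) and Rbms3 (-1.13) of the signature and Ier3 (0.73) were called over all ECs, and no gene of these lists in Cdh5+/Krt19+ cells.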

How the data were processed

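Cells sorted from mouse skin were sequenced by the authors as 10x 3′ libraries, and per the labels Cell Ranger 6.0.1 and Seurat 4.0 with build mm10 were used. The deposited files hold the UMI count of each gene in each cell, not normalized, for 6 libraries. Cells with 200 to 5000 genes and under 10% mitochondrial UMIs were kept. Cells were clustered in scanpy 1.11.5 with a Harmony correction between libraries and Leiden (leidenalg 0.10.2) at resolution 0.6, leaving out 81 genes, the members and listed genes among them. This gave 21 clusters of all cells and 11 of ECs. A cluster was named from at least 3 markers at 2-fold and in 25% of its cells. Clusters that met no name entered no named population (2 of ECs entered the sum of all ECs alone), and doublets were kept, with their removal as an alternative.

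Counts were summed per library and population and fitted in edgeR 4.0.16 (R 4.3.3, quasi-likelihood, TMM, filterByExpr), 1 fit per comparison with adjustment over all genes of the population. SE is the log2 fold change over the root of F. Interactions kept the library as a block. A script tested on simulated data with 200 changed genes called 28% of 2-fold and 68% of 4-fold changes for the KO comparison in the 10339 genes of Cdh5+/Krt19+ cells, and 70% and 93% in the 12863 genes of all ECs. In the same simulated data 9 and 37 unchanged genes were called as well, so a call can be false. An exact permutation test of 2 against 2 libraries cannot go below p = 0.333.

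All members are reported, the pathway genes named are those called over all ECs or in Cdh5+/Krt19+ cells, and the genes most like a member are its 3 highest correlations. The members and lists were chosen with earlier results of these data known. The fits of lymphatic and blood ECs and of the 2 Cdh5+/Krt19+ clusters were added after seeing the data.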

Additional observations from a re-analysis of the deposited data

Results flagged for a closer look

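The KO difference itself differed between cell groups for 5 members, by an interaction term in edgeR. Between Cdh5+/Krt19+ cells and all ECs pooled the terms were 1.89 for Ccn2, 1.08 for Amotl2 and 0.96 for Tead1 on the log2 scale. Each was a larger rise in Cdh5+/Krt19+ cells, beside 6.34% of all genes called. The Amotl2 and Tead1 terms were lost without either WT telogen library and without 1 of the KO libraries. Between lymphatic and blood ECs the terms were 0.98 for Amotl2, -1.03 for Yap1 and -0.84 for Wwtr1, beside 19.7% of all genes. That of Amotl2 was lost without WT telogen S1. No member was called by the corresponding test of the stage difference, beside 2.18% and 0.101% of all genes.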

How the results depend on the processing

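Of the 21 KO calls of members in single populations, 6 were kept under every alternative that gave a value: Wwtr1 in Lymph-Col, Ccn2 and Amotl2 in Cdh5+/Krt19+ cells, and Ccn1, Ccn2 and Amotl2 in fibroblast-like cells. The number of calls was 12 with DESeq2, 12 with no correction between libraries and 13 to 30 when 1 library was left out. With no correction, the calls in fibroblast-like cells and in Cap-Rgcc had no value, so they were neither kept nor lost there. With the replicate number as a block 23 were called, 20 of them among the 21, but same-numbered libraries did not deviate together (correlations of -0.0912 to 0.0221), so the numbers do not pair the samples. Genes called over all ECs went from 4170 to 2718 with DESeq2 and 2761 to 4389 with a library left out, and in Cdh5+/Krt19+ cells from 2183 to 1423 and to 938 to 2521. Of the 3 interaction calls in Cdh5+/Krt19+ cells, 1 to 3 were found with a library left out. Those fits leave 1 library in a group, which is assumed to vary like the other group.

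For the stage comparison the 1 call of a member became 5 with DESeq2, 12 with no filter on low counts, 3 with the replicate block, 2 under 5% mitochondrial UMIs, 2 with no correction between libraries and 0 to 11 with a library left out. Genes called over all ECs (714) became 1119, 2076 with no filter, 1158 with all 6 libraries in 1 fit, 1394 under 5% mitochondrial UMIs, 190 with equal cell numbers and 0 to 3133 with a library left out. In Cdh5+/Krt19+ cells 107 became 693 with no filter, 69 with all 6 libraries, 555 with the replicate block, 11 under 5% mitochondrial UMIs, 18 without likely doublets and 299 to 414 with a library left out. The stage interactions, at 0, gave 2 with no filter and 0 to 1 (Cdh5+/Krt19+ cells) and 0 to 3 (lymphatic against blood) with a library left out. The causes were not tested.

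The Ccn2 share of WT telogen Cdh5+/Krt19+ cells was 16.5% at 3000 UMIs and 22.8% unthinned, and that of KO cells 50.6% at 3000 UMIs. With 1 library left out, Ccn1 in Artery ranged from -0.90 (without Alk1 KO S1) to 0.73 and Wwtr1 in immune-like cells from -9.33 (without Alk1 KO S2, where the remaining KO library had 0 UMIs) to 1.52, both turning direction. Of the other single-gene alternatives 787 left the gene called or not called as before, 65 lost and 23 gained a call. A turn of direction where neither fit called the gene counts among the 787. The KO sums of Cdh5+/Krt19+ cells rest on 82 and 56 cells.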
